A study of Mus musculus with 4 samples.

Results

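Among the cells recovered from 4T1 tumours, 1387 of 33064 barcodes (4.32% of the 32133 cells kept, exact 95% interval 4.10 to 4.54%) were epithelial-state tumour cells low in the cycling genes Top2a and Mki67, called non-cycling below. They were picked cell by cell on unique molecular identifiers (UMIs), the tags that let droplet sequencing count transcript molecules. A cell had to hold at least 300 genes and 5000 UMIs, at most 15% mitochondrial UMIs, at least 0.2% of its UMIs from the keratins Krt8 and Krt18, and at least 1 UMI each of Epcam and Cldn4. It also had to hold under 5 UMIs of Top2a and Mki67 together, no Ptprc, under 0.3% of UMIs from C1qa, C1qb and C1qc, and under 3 UMIs of Lgals7. These genes chose the cells, so their levels are described here and not tested.

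The study treated tumours with TIOs, liquid-nitrogen-treated macrophages that carry nanoparticles with the GPX4 inhibitor RSL3 and drive lipid peroxidation under near-infrared (NIR) light. All 4 samples came from female BALB/c mice, 6 to 8 weeks old, that received 1000000 4T1 mammary carcinoma cells in the right flank, an intravenous injection on day 7, then light of 980 nm and 1.0 W cm-2 on each of days 8, 9 and 10, for 5 min a day, with collection on day 13. The injection was PBS in 2 samples and TIOs in 1 sample, and the sample titled PBS has a protocol that names TIOs, so it was put in no group. By the methods, cells were sorted for CD45, the product of Ptprc, a gene with no UMI in the cells described here by the rule. The 4 libraries are told apart by barcode suffix only, and neither the labels nor the methods tie a suffix to a sample. The libraries are therefore samples of unknown treatment. Treatments could not be compared, and no test was run.

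Epithelial cells are held together by adherens junctions, tight junctions and desmosomes, and filled by keratin filaments. Carcinoma cells can loosen these contacts and gain mesenchymal genes such as Vim, a shift in which the repressors Snai1, Zeb1 and Zeb2 act on promoter motifs known as E-boxes. Many 4T1 cells hold epithelial and mesenchymal genes side by side. Cells that meet interferon gamma raise the MHC genes, which display peptides to T cells. Class I is found on nearly all cells, while class II, under the activator Ciita, is mostly a property of myeloid and B cells.

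Library 1 held 1331 of the 1387 cells (96.0%). These were 17.0% of its 7847 kept cells (16.1 to 17.8%). Library 2 held 56, or 0.650% of 8614 kept cells (0.491 to 0.843%). None was found among the 6783 kept cells of library 3 or the 8889 of library 4. A floor of 3 counts is 0.0442% and 0.0337% of these cells, and the exact upper limits are 0.0544% and 0.0415%. The near absence in libraries 3 and 4 went with the keratin criterion itself. Cells with 0.2% or more keratin UMIs numbered 4100, 143, 0 and 1 in libraries 1 to 4. The libraries summed to 108646352, 81369540, 69255999 and 96493208 UMIs in the same order. The intervals cover counting error only, and everything below on the pooled cells is in the main a description of library 1.

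**Figure D1:**
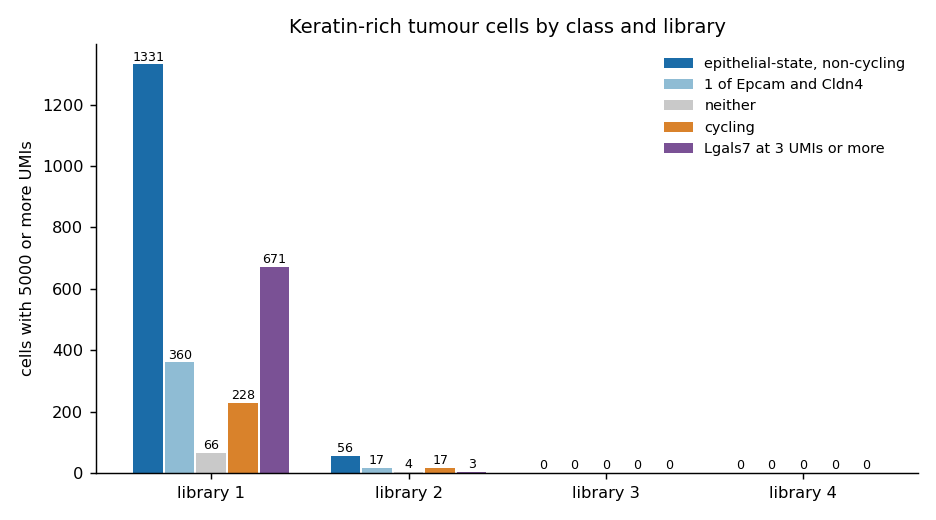
Number of keratin-rich cells with 5000 or more UMIs (y axis) in each library (x axis), by class; the classes differ from the epithelial-state, non-cycling cells in Epcam, Cldn4 or both, in the cycling genes or in Lgals7, and the number above each bar is its height. Library 1 holds 1331 of the 1387 epithelial-state, non-cycling cells and library 2 holds 56.

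The cells were deep, with a median of 17449 UMIs and 4012 genes and 1.86% mitochondrial UMIs. Median UMIs were 17088 in library 1 and 34822.5 in library 2. Of the tumour cells, defined by the same rule without the Epcam, Cldn4 and cycling terms, the epithelial-state, non-cycling cells made up 65.0% in library 1 (1331 of 2047) and 57.7% in library 2 (56 of 97, 47.3 to 67.7%), shares whose intervals overlapped. A further 377 tumour cells held 1 of Epcam and Cldn4, 70 held neither, and 245 were epithelial but cycling. Another 674 cells missed the rule only through 3 or more UMIs of Lgals7, 337 only through Cldn4, 218 only through Ptprc and 139 only through the keratin share. The kept cells of any 2 libraries shared 11 to 22 barcodes, and no epithelial-state, non-cycling cell shared its barcode with another.

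The thresholds cut through continuous distributions. Cells just inside the keratin limit (74 cells) had a median Epcam level of 344.3 CPM (UMIs of a gene per 1000000 UMIs), against 275.2 in 53 cells just outside. At the cycling limit the median Epcam levels were 889 CPM in 24 cells inside and 729 CPM in 26 outside. At the Lgals7 limit they were 1027 and 907 CPM, in 255 and 143 cells. At the Cldn4 limit the median Epcam level was 382.1 CPM in 206 cells that held 1 Cldn4 UMI and 248.6 CPM in the 337 that held none. The limit on Top2a and Mki67 does not show that a cell is out of the cycle. After thinning, 51.4% of library 1 cells held a UMI of the G2/M list and 81.5% one of the G1/S list. The shares were 99.6% and 93.4% in the cycling cells of that library. The G2/M list includes Top2a and Mki67, so the rule in part sets its shares, while the G1/S list holds neither gene. Of the 1387 cells, 56.5% held no UMI of Top2a or Mki67 and 49.1% none of Lgals7.

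The label was checked on markers that the rule did not use. Krt19 and Krt7, keratins of simple epithelia, were at 141.8 and 532.3 CPM, the adherens junction cadherin Cdh1 at 61.9, and the tight-junction claudins Cldn3 and Cldn7 at 197.8 and 121.1. Defining genes of other cells were at or near 0, namely the endothelial Pecam1, Cdh5 and Kdr (1.16, 0.338 and 0.225 CPM), the T-cell gene Cd3e (2.06) and the dendritic genes Flt3, Xcr1 and Ccr7 (0.113, 0.0751 and 0.451). The basal regulator Trp63 was at 1.16 and the basal keratin Krt5 at 5.26 CPM, although Krt14 reached 387.3. Of 13 mammary lineage genes 4 were at 20 CPM or more, namely Lcn2 (1677), Cd24a (252.4), Itga6 (80.5) and Cd14 (30.4), while the hormone receptors Esr1 and Pgr were at 5.22 and 0 CPM. The alveolar regulator Elf5 was at 0. The epithelial label thus held on genes outside the rule, in cells of 1 tumour line.

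Markers of other cell types were present at low level. In library 1 the 7 macrophage markers were at 1.62 to 2.82% of their level in that library's C1q-rich Ptprc-positive cells (966 cells), with Lyz2 at 1.81% and Cd68 at 2.82%. The rule caps C1qa, C1qb and C1qc, 3 of the 7, and they define the reference cells. Summed over the list, they came to 319.0 CPM in library 1 and 101.3 in library 2, with Lyz2 the most abundant (102.4 and 50.9 CPM). The 5 neutrophil markers summed to 224.5 and 282.8 CPM, with S100a9 the most abundant, while Csf3r and Cxcr2 were at 1.61 and 0.676. Fibroblast markers differed most between the libraries, at 195.6 CPM summed in library 1 and 1153 in library 2, led by Col3a1. All 56 cells of library 2 held collagen UMIs (0.0612 to 0.452% of UMIs, median 0.0956%), against 948 of 1331 in library 1 (median 0.00633%). Epithelial markers were also seen outside the tumour cells. In the C1q-rich cells of library 1, Epcam, Cldn4, Krt8 and Krt18 summed to 956.2 CPM, against 7910 in the epithelial-state cells. A UMI of Epcam was held by 61.6% of that library's kept cells. The part of free RNA in single UMIs of Epcam and Cldn4 was not tested.

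Sequence upstream of 6 of the genes described here is shown, with letters marked that match motifs of known factors. Each line gives 150 bases that end at the annotated start site, 5′ to 3′ on the gene's own strand, from RefSeq promoters on GRCm38.p6. Capitals mark CAGGTG or its reverse complement CACCTG, an E-box, in the junction genes. They mark CTGATTGG, the Y box, in the class II genes, and GAAA, 2 unspecified bases and GAAA again (an interferon-stimulated response element) in Igtp, an interferon-induced GTPase. The Epcam sequence lies at chr17:87635829-87635978 (+), Cldn4 at chr5:134946935-134947084 (-), Cldn7 at chr11:69965271-69965420 (+), H2-Aa at chr17:34287824-34287973 (-), H2-Eb1 at chr17:34305717-34305866 (+) and Igtp at chr11:58199406-58199555 (+).
Epcam: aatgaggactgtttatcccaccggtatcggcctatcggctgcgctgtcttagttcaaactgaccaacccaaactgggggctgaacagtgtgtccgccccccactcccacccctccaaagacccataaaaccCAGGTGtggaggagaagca
Cldn4: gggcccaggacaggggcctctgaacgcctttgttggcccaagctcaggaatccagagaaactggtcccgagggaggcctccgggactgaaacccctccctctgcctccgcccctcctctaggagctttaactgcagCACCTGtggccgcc
Cldn7: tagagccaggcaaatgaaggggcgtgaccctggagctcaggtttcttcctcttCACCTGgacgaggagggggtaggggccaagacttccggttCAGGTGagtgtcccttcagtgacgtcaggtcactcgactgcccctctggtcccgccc
H2-Aa: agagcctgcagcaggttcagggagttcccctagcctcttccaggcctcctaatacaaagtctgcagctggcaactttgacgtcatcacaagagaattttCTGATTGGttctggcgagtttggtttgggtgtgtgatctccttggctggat
H2-Eb1: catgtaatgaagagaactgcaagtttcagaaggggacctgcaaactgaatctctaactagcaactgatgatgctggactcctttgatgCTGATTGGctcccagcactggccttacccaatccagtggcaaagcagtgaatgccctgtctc
Igtp: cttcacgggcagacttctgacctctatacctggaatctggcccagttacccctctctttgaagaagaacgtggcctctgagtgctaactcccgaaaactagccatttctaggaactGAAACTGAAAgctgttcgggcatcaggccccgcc

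Over the 250 bases upstream, searched on both strands, an E-box was found for 7 of 14 junction genes (50%) and 5 of 7 keratin genes (71.4%) with an entry, against 19.4% of 27025 genes. The interferon-stimulated element was found for 11 of 23 interferon-response genes (47.8%, against 3.46%). The Y box was found for 2 of 4 class II genes and 5 of 13 class I genes (38.5%), against 4.43%. These are matches of letters and not sites shown to be bound.

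Within the tumour cells, the 1387 epithelial-state cells were first set against the 70 that met the other criteria but held neither Epcam nor Cldn4. Median UMIs were 11479.5 in these 70 cells and 17449 in the epithelial-state cells, and the part of depth in the split was not tested. Of 5843 genes at 20 CPM or more in either class, 87 (1.49%) differed past 2-fold on CPM plus 10, with 75 (1.28%) higher and 12 (0.205%) lower in the epithelial-state cells. The counts were 128 and 29 after thinning, 148 and 36 with Top2a and Mki67 at 0, 145 and 46 at a pseudocount of 1 CPM, 252 and 79 at a keratin limit of 0.5%, and 24 and 3 at a minimum of 100 CPM. Since Epcam and Cldn4 defined the classes, this contrast describes which genes go with them. Of 10 further junction genes at that level, 5 were higher past 2-fold and none lower. Their median log2 ratio was 0.87, beside -0.0096 over all genes.

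Krt19 showed the widest gap (chr11:100140810-100148665, minus strand). Its level was 141.8 CPM against 8.97 (15.8-fold, exact interval 8.01 to 36.6), and after thinning every cell to 5000 UMIs it was seen in 34.8% of cells of library 1, 51.8% of library 2 and 4.29% of the cells with neither gene. Krt14 was at 387.3 against 61.7 CPM (6.28-fold, 4.82 to 8.34), Krt7 at 532.3 against 126.7 (4.20-fold) and Krt16 at 132.2 against 41.5 (3.19-fold). So 4 of the 5 keratins at 20 CPM or more outside the rule were higher, the exception being Krt17 (31.1 against 14.6 CPM).

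Claudins and desmosomal genes followed the same order. Cldn3 was at 197.8 CPM against 24.7 (8.02-fold, 5.29 to 12.8) and Cldn7 at 121.1 against 22.4 (5.40-fold). Jup, the plakoglobin of desmosomes and adherens junctions, was at 79.6 against 21.3 (3.74-fold). The desmosomal cadherin Dsg2 was at 21.4 against 2.24, on 2 UMIs in the comparison class (9.53-fold, 2.62 to 78.8), and Cdh1 at 61.9 against 25.8 (2.40-fold, 1.59 to 3.80). Tjp1, a scaffold of tight junctions, was the only 1 of the 10 with a ratio below 0 on the log2 scale, at 38.3 and 47.1 CPM. In library 1 alone 4 of the 10 remained past 2-fold.

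Genes outside the lists were also among the 10 of largest ratio. Fxyd3, a regulator of the sodium pump, was at 315.9 against 33.6 CPM. Fgfbp1, a carrier of fibroblast growth factors, was at 109.1 against 7.85. The protease Prss22 (194.6 against 24.7), Ly6c1, Ramp1 and complement C3 were others. Of 9 epithelial regulators at 20 CPM or more, all 9 had a ratio above 0 but only Rab25, a trafficking GTPase of polarised cells, was past 2-fold (73.4 against 16.8 CPM, 4.36-fold). Splicing regulator Esrp1 was at 30.1 against 13.5 CPM and the membrane protease St14 at 53.7 against 23.5.

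Mesenchymal genes did not separate as far. None of 11 was past 2-fold, and their median log2 ratio was -0.28. Under other settings 2 were lower past 2-fold at a keratin limit of 0.5%, and 1 with Top2a and Mki67 at 0 and at a pseudocount of 1 CPM. Vim was at 3511 against 5859 CPM (0.599-fold, 0.583 to 0.616), and thinned cells held a median of 12 Vim UMIs in library 1, 10 in library 2 and 24.5 in the cells with neither gene. The repressors Snai1 (31.0 against 63.9 CPM, 0.486-fold, 0.371 to 0.647) and Zeb2 (39.8 against 60.5) were lower short of the limit. Fn1, the matrix protein fibronectin, went the other way at 1720 against 1245 CPM. Zeb1, Cdh2 and Snai2 were at 2.29, 0.0375 and 0.15 CPM in the epithelial-state cells. Vim and Fn1 in these cells stood at 73.8% and 73.2% of their level in the collagen-rich cells of library 1, while Col1a1 and Sparc stood at 0.415% and 1.43%.

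Of 20 secreted-signal genes 4 were higher past 2-fold and 1 lower (median log2 ratio 0.36). The higher ones were Tslp (275.0 against 69.5 CPM), Il1a (49.6 against 11.2), Cx3cl1 (51.2 against 19.1) and Ccl5 (22.1 against 5.61, on 5 UMIs), and the lower one was Ccl2.

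The 12 genes lower past 2-fold were led by Serpine2 (chr1:79794197-79861180, minus strand), a secreted protease inhibitor, at 41.0 against 479.9 CPM (8.41% of thinned library 1 cells against 34.3%). They included the chemokine Ccl2 (53.3 against 139.0 CPM) and the cytokine Il11 (27.3 against 69.5). Cd68 was also among them (9.20 against 35.9), but in library 1 alone its log2 ratio was -0.26. Ifit1 (17.5 against 56.1 CPM) changed sign under 2 other settings. Outside the rule, Cd68 was 1 of 2 macrophage markers at 20 CPM or more, the other being Lyz2 (98.5 against 88.6 CPM), and neither of the 2 neutrophil markers passed 2-fold.

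**Figure D2:**
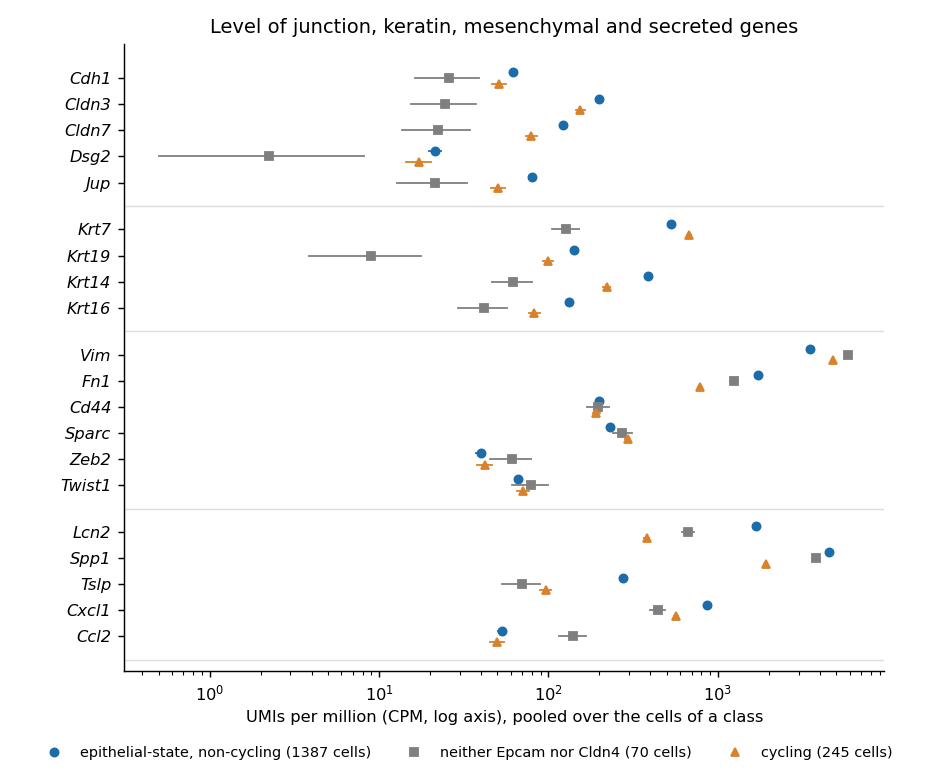
Level in CPM (x axis, log) of genes of the junction, keratin, mesenchymal and secreted groups (y axis) in the epithelial-state, non-cycling cells and in the 2 neighbouring classes; points are pooled levels and lines are exact 95% Poisson intervals, which cover counting error only. Keratins and claudins are lowest in the 70 cells with neither Epcam nor Cldn4, where Krt19 is at 8.97 CPM against 141.8. Vim is higher there than in the epithelial-state, non-cycling cells.

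Against the 377 cells with 1 of Epcam and Cldn4, 36 of 5628 genes (0.64%) were past 2-fold, 35 (0.622%) higher and 1 (0.0178%, Serpine2) lower in the epithelial-state cells, and 4 of 10 junction genes outside the rule were higher in the epithelial-state cells (Cldn3, Cldn7, Dsg2 and Jup). Krt19 was at 8.97, 41.8 and 141.8 CPM in cells with neither, 1 and both genes, and Krt14 at 61.7, 111.1 and 387.3, so the cells with 1 gene lay between for these keratins. For Vim they did not, at 5859, 5870 and 3511 CPM. Cells with 3 or more UMIs of Lgals7, a galectin of stratified epithelia, were compared in the same way. Of 5521 genes 3 (0.0543%) passed 2-fold. Lower in the epithelial-state cells (0.0362%) were Lgals7, which the rule used, and the keratin Krt6b (5.48 against 34.8 CPM), and higher (0.0181%) was Col3a1 (98.1 against 37.8), whose log2 ratio was 0.69 in library 1 alone.

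Cycling epithelial-state cells numbered 245 and were deeper (median 30508 UMIs). Of 5929 genes, 242 (4.08%) were past 2-fold, with 24 (0.405%) higher and 218 (3.68%) lower in the non-cycling cells. Genes higher were 38 after thinning, 41 at a pseudocount of 1 CPM and 15 at a minimum of 100 CPM, where 70 were lower. Top2a and Mki67 made this contrast, so a gap in other mitotic genes describes the split. All 18 other G2/M genes were lower, for instance the ubiquitin ligase subunit Ube2c (23.2 against 499.2 CPM), the kinetochore gene Cenpf (16.0 against 327.4) and Birc5 (29.1 against 367.3). Of 12 G1/S genes, 8 were lower past 2-fold, among them Pcna (72.4 against 158.6), Mcm5 (28.3 against 120.2) and Rrm2 (8.94 against 95.1). The median log2 ratios were -2.72 and -1.15, against -0.045 over all genes.

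No gene of the cell cycle brake list at 20 CPM or more was higher past 2-fold in the non-cycling cells. Cdkn1a, which encodes p21, was at 54.3 against 51.2 CPM (1.06-fold) and Cdkn1b at 34.0 against 41.6. Cdkn2a and Cdkn2b were at 0.188 and 0.0751 CPM. Cdkn2d was lower in the non-cycling cells (16.9 against 77.2 CPM). It was the only gene past 2-fold of the 10 at that level on the list, which also holds the D cyclins and Mdm2, not brakes themselves. Cyclin D1 (Ccnd1) was at 977 against 1277 CPM.

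Of 20 secreted-signal genes 18 had a ratio above 0 and 1, Tslp, was higher past 2-fold. Lcn2 (chr2:32384633-32388252, minus strand), an iron-siderophore carrier of inflamed epithelium, was at 1677 against 379.8 CPM (4.42-fold, 4.26 to 4.58), with a median of 4 UMIs per thinned cell in library 1, 1 in library 2 and 1 in the cycling cells. Spp1, the matrix phosphoprotein osteopontin, was at 4509 against 1912 CPM, and Tslp, an epithelial cytokine, at 275.0 against 96.2. Thbs1, Cp, Ace, C3, the transporter Abcc3 and Ly6d were the others of the 10 largest with Fxyd3. The transcription factor Klf4 was at 553.9 against 243.0 CPM and Fn1 at 1720 against 783.1. Of 19 glycolysis and hypoxia genes all had a ratio above 0 and none passed 2-fold (median log2 ratio 0.48), with Ndrg1 at 490.2 against 258.4 CPM.

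Acta2, of contractile cells, was lower (9.57 against 44.4 CPM). Of the macrophage markers outside the rule 1 was at 20 CPM or more, Lyz2 (98.5 against 90.1 CPM).

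**Figure D3:**
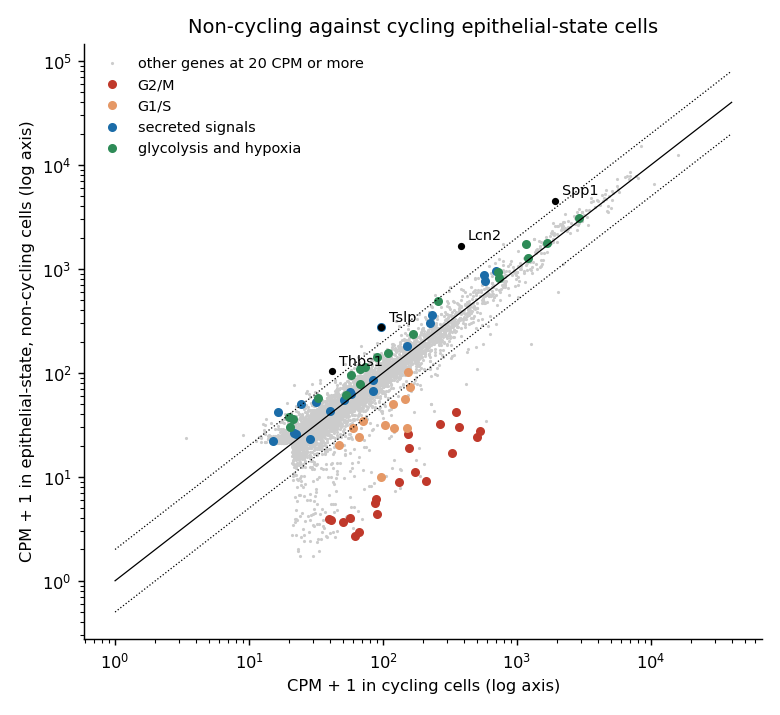
Level (CPM plus 1, log axes) of each gene in the epithelial-state, non-cycling cells (y) against the 245 cycling cells (x); coloured points are genes of 4 lists, black points are named secreted genes, the solid line is equality and the dotted lines mark 2-fold. G2/M genes lie far below the line, glycolysis and hypoxia genes lie just above it, and Lcn2 is at 1677 against 379.8 CPM.

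The cells of the 2 libraries that held them were set side by side as a description. Between 1331 cells of library 1 and 56 of library 2, 377 of 6186 genes (6.09%) were past 2-fold, 158 (2.55%) higher and 219 (3.54%) lower in library 1. The counts were 279 and 480 with each cell thinned to 5000 UMIs, 70 and 70 at a minimum of 100 CPM, and 424 lower at a pseudocount of 1 CPM. The median log2 ratio of all genes was -0.13. The treatments behind the libraries are unknown, and 1 library stands on each side, so the gap cannot be told apart from differences between animals or preparations.

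MHC class II genes showed the widest difference. All 6 at 20 CPM or more were higher in library 1, with a median log2 ratio of 4.40. Cd74, the class II invariant chain, was at 2325 CPM in library 1 and 58.9 in library 2 (39.5-fold, 33.0 to 47.7). H2-Aa was at 977.9 and 30.4 CPM, H2-Eb1 at 710.9 and 14.5, and H2-Ab1 at 606.6 and 23.9. The peptide-loading chains H2-DMa (165.8 and 13.5) and H2-DMb1 (148.0 and 3.49) followed. Ciita, the activator of the class, was at 14.0 and 0.499 CPM, the latter a single UMI.

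Class II signal was spread over nearly all cells of library 1. After thinning to 5000 UMIs, Cd74 was seen in 99.0% of 1331 cells (98.3 to 99.5%) and in 28.6% of the 56 cells of library 2 (17.3 to 42.2%), and H2-Eb1 in 88.8% and 7.14%. The median cell of library 1 held 21 class II UMIs of 5000 (10th and 90th percentiles 8 and 45), and that of library 2 held 1. The top 1% of library 1 cells carried 3.24% of Cd74 UMIs.

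Class II levels were set against those of C1q-rich cells. In library 1, class II genes stood at 11.8 (Cd74), 15.6 (H2-Aa), 17.6 (H2-Eb1), 19.1 (Ciita) and 25.3% (H2-DMb1) of the level in C1q-rich cells, against 1.81 to 2.82% for the macrophage markers that the rule did not use (Lyz2, Csf1r, Adgre1 and Cd68). Across the 1331 cells, the class II sum had a Spearman rho of 0.015 with Lyz2, 0.44 with the class I list and 0.36 with the interferon list, in cells of 1 library thinned to 1 depth. In the 104 collagen-rich cells of library 1, Cd74 was at 469.5 CPM. In library 2 the class II genes stood at 3.01 (Cd74) to 5.18% (H2-Ab1) of the C1q-rich level, and the macrophage markers Lyz2 at 0.761%, Csf1r at 1.51% and Cd68 at 2.53%. The part of free RNA in the class II signal of the epithelial-state cells was not tested in either library.

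Class I and interferon-response genes were higher in library 1 too. Of 15 class I genes, 8 were higher past 2-fold and none lower (median log2 ratio 1.15). The heavy chain H2-K1 was at 2730 and 881.4 CPM (3.10-fold), the peptide transporter Tap1 at 118.4 and 9.98 (11.9-fold, 7.67 to 19.5) and the immunoproteasome subunit Psmb9 at 329.5 and 42.9 (7.68-fold), while the light chain B2m was at 2077 and 1164. Of 19 interferon-response genes, 13 were higher and none lower (median 1.34). The transcription factor Irf1 was at 247.7 and 112.7, Igtp at 112.7 and 4.49, and Cxcl10, a chemokine for T cells, at 129.0 and 15.5.

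Several were close to absent from library 2. Iigp1 had 3156 UMIs in library 1 and 3 in library 2 (85.6-fold, 29.3 to 415), and Cxcl9 had 1628 and 2. Gbp4 had 2166 and 0 UMIs. That is 58.8-fold higher in library 1 against a floor of 3 UMIs over the 56 cells, with an exact lower limit of 47.7-fold. H2-Ea-ps, of the class II family by its symbol, was at 610.7 and 20.9 CPM.

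The other tumour cells of the same 2 libraries held a class II gap as well. Summed over the list, class II genes were at 4949 CPM in library 1 and 145.1 in library 2 in the epithelial-state, non-cycling cells. They were at 4525 and 123.9 CPM in the cycling cells (228 and 17 cells), at 3971 and 109.3 in cells with 1 of Epcam and Cldn4 (360 and 17) and at 5185 and 107.0 in cells with 3 or more Lgals7 UMIs (671 and 3). The class II gap was thus not limited to the epithelial-state, non-cycling cells. Interferon-response genes, summed, were at 2437 and 913.3 CPM in those cells. In the other 3 classes, in the same order, they were at 2504 and 979.8, 2187 and 1106, and 2422 and 711.5. In cells with neither Epcam nor Cldn4 (66 and 4 cells) they were at 2207 and 2669.

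Cells of other types were compared in the same way. In C1q-rich cells 5.02% of 6356 genes were higher and 12.2% lower in library 1, in collagen-rich cells 3.88% and 4.87% of 6370, and in S100a8-rich and S100a9-rich cells 7.63% and 19.9% of 6811. The medians over all genes were -0.22, 0.016 and -0.25. The last of these classes was not the same mixture in the 2 libraries, since keratins summed to 9664 CPM in library 1 and 224.0 in library 2 and fibroblast markers to 61.7 and 26271, so its values are not a comparison of 1 cell type. Class II genes were higher in library 1 in C1q-rich cells (7 of 7, 966 and 264 cells), in collagen-rich cells (6 of 6, 104 and 936) and in S100a8-rich and S100a9-rich cells (6 of 6, 37 and 102). In the same order, median log2 ratios of the list were 3.28, 2.05 and 1.32, against 4.40 in the epithelial-state cells. For the class I list they were 0.53, 1.19 and 0.85, against 1.15. For interferon-response genes they were 0.051, 0.33 and -0.17, against 1.34. Genes of that list higher and lower in library 1 were 8 and 1 of 27 in C1q-rich cells, 8 and 2 of 24 in collagen-rich cells and 5 and 6 of 27 in the last class. Iigp1 was at 150.9 and 20.5 CPM in C1q-rich cells and at 436.7 and 56.97 in collagen-rich cells. Whether these gaps differ from each other was not tested. Cd74 was at 469.5 and 46.0 CPM in the collagen-rich cells of libraries 1 and 2, and at 19771 and 1955 in the C1q-rich cells. The part of free RNA in the class II signal of collagen-rich cells was not tested.

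Immediate early genes, which respond within minutes to stress and growth signals, were in part higher in library 1. Of 18, 7 were past 2-fold, and none was lower. Fos was at 2352 and 606.0 CPM, Jun at 2735 and 631.0 and Atf3 at 1881 and 605.0, whereas Junb was at 2785 and 2544. In C1q-rich cells Fos was at 4304 and 1518 CPM, and 6 of 18 were higher and none lower. In collagen-rich cells 4 were higher and 1 lower, and in S100a8-rich and S100a9-rich cells 6 were higher and 3 lower. Such genes are known to respond to tissue dissociation, and its part here was not tested.

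Some hypoxia genes were higher in library 2. Of 19 glycolysis and hypoxia genes, 6 were lower in library 1 past 2-fold and none had a ratio above 0 (median log2 ratio -0.74). By the mean of each cell's CPM, 10 were lower. Vegfa, the vascular growth factor, was at 27.4 and 153.1 CPM in libraries 1 and 2, Ndrg1 at 441.0 and 1095 and Car9, a carbonic anhydrase of hypoxic cells, at 97.7 and 245.9. The glycolytic genes Gapdh (3005 and 4366) and Pgk1 (870.5 and 1708) fell short of 2-fold. Vegfa was at 29.9 and 160.1 CPM in S100a8-rich and S100a9-rich cells, at 213.8 and 183.0 in collagen-rich cells and at 90.6 and 78.5 in C1q-rich cells. Genes of this list lower in library 1 were 4 of 20, 1 of 18 and 0 of 18 in these cells, and those higher were 0, 0 and 5.

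The 4 fibroblast markers at that level were also lower in library 1, with Col3a1 at 60.0 and 566.6 CPM and Col1a1 at 53.1 and 249.4. The collagen-rich cells of library 2 were 936 and those of library 1 were 104, and the part of free RNA in these 4 genes was not tested. Collagens in epithelial-state cells stood at 0.413 to 0.419% of the collagen-rich level in library 1 and 1.47 to 2.53% in library 2. Integrin Itgb1 (365.1 and 819.5 CPM), the hyaluronan receptor Cd44 (180.0 and 446.9) and the urokinase gene Plau (44.5 and 255.9) were lower in library 1 as well. So were the cytokines Il24 (52.7 and 316.2) and Il1a (41.3 and 151.1), the chaperone Hspb1 (34.6 and 206.0) and Cdkn1a (49.2 and 117.7). Gm26885 had the lowest ratio (0.853 and 178.1 CPM), but without the cells of highest doublet scores, 1 of them in library 2, its log2 ratio was -0.22.

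**Figure D4:**
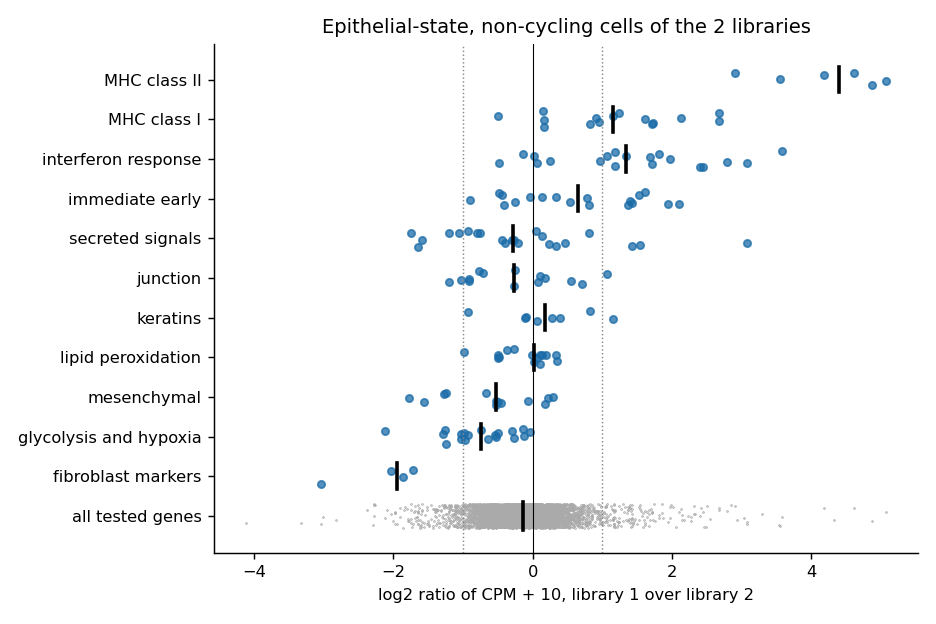
Log2 ratio of CPM plus 10 between the epithelial-state, non-cycling cells of library 1 and of library 2 (x axis) for each gene at 20 CPM or more of 11 lists and for all 6186 genes (y axis); points are genes, black bars are medians and dotted lines mark 2-fold. Class II genes lie farthest to the right (median 4.40), fibroblast markers farthest to the left (median -1.95), and all genes centre at -0.13.

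Epithelial genes differed in part between the 2 libraries. Of the genes that the rule used, Epcam was at 1084 and 737.7 CPM, Cldn4 at 436.7 and 386.6. Krt7 was at 534.2 and 508.8 and Krt14 at 392.6 and 322.2. Krt18 (3822 and 1707 CPM), also used by the rule, and Cldn3 (206.3 and 93.3) were higher in library 1 past 2-fold. Krt19 was at 132.2 and 259.9 CPM and Cdh1 at 58.3 and 106.2. Of 12 junction genes outside the rule 1 was higher and 2 lower, with a median log2 ratio of -0.49.

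Of 22 secreted-signal genes at 20 CPM or more, 3 were higher in library 1 (Tslp, Slpi and Ccl5) and 5 lower (Il1a, Cxcl3, Csf2, Ccl7 and Tgfa). The neutrophil chemokine Cxcl1 was at 850.4 CPM in library 1 and 1046 in library 2, and Csf3, the granulocyte growth factor, at 361.5 and 305.8. The growth factors Hbegf (780.7 and 442.9) and Areg (283.5 and 548.7) were present in both. Tslp was at 295.3 and 25.9 CPM (11.4-fold, 8.67 to 15.3), Lcn2 at 1777 and 442.4 and the antiprotease Slpi at 998.3 and 334.7. Tslp was uneven between cells, as 49.7% of thinned library 1 cells held it and the top 1% of cells carried 18.1% of its UMIs. Il6 and Ccl20 were at 0.934 and 0.284 CPM in library 1 and at 13.0 and 10.5 in library 2.

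Gpx4, the target of RSL3, was at 547.8 CPM in library 1 and 539.7 in library 2 (1.02-fold, 0.954 to 1.08), at 547.1 in cells with neither Epcam nor Cldn4 and at 531.1 in cycling cells. The ferritin chains Fth1 and Ftl1 were at 15103 and 2719 CPM over all 1387 cells, and Fth1 was at 8495 in the cycling cells (1.78-fold). Fth1 was also among the most variable genes between cells. Acsl4, which builds polyunsaturated lipids, was at 138.6 and 169.6 CPM in libraries 1 and 2, and the cystine importer Slc7a11 at 8.44 and 5.99. None of the 15 genes of this list at 20 CPM or more passed 2-fold between the libraries or against the cycling cells, nor did any of 14 against the cells with neither gene.

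Among the executors of lytic death, the Gsdmc family lay between 0 and 0.113 CPM, Gsdme was at 7.13 and Gsdmd at 21.0, with Mlkl at 24.0 and Ripk3 at 1.54. Ninj1, which ruptures the plasma membrane, was at 54.8 CPM and seen in 23.4% of thinned cells. Casp1 (73.1 and 16.5 CPM) and the nucleic acid sensor Zbp1 (91.9 and 27.9) were higher in library 1 than in library 2 past 2-fold, which made 2 of 10 genes. Of the recognition genes, Vcam1, the integrin ligand, was at 74.0 and 47.4 CPM, and Cd47, the signal that restrains phagocytes, at 343.2 and 414.0.

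The genes with most UMIs, leaving out mitochondrial and ribosomal protein genes, were Fth1, S100a6, Tpt1, Eef1a1 and Malat1. The next were Lgals1, Fau, Hsp90ab1, H3f3b and H2-D1, followed by Spp1, Actb, Ppia, Krt18 and Ptma. Most kept close levels in the 2 libraries, for instance Tpt1 at 7782 and 8456 CPM. Spp1 (4766 and 1350), H2-D1 (4974 and 2097) and Krt18 were the exceptions past 2-fold.

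Cell-to-cell variation was measured in the 1331 cells of library 1, each thinned to 5000 UMIs. Over 3219 genes with a mean of 0.2 UMIs or more, the median ratio of variance to mean was 1.09, close to the value of 1 that sampling gives. It exceeded 2 for 194 genes. Malat1, a nuclear RNA, led with 74.1 (10th percentile 3 UMIs, median 19, 90th percentile 105), ahead of Spp1 (46.5), Fth1 (40.6), S100a6 (30.7) and Slpi (26.7). Lcn2 ran from 0 to 24 UMIs between the 10th and 90th percentiles and Vim from 2 to 36.

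For the collagens a few cells carried much of the signal. Col1a1 had a ratio of 24.7, but 1 cell held 24.5% of its UMIs and 10 cells held 50.6%. The same held for Col1a2 (19.1% in 1 cell) and Col3a1 (13.8%). Without cells of the highest 5% of doublet scores the 15 most variable genes were the same 15. With a minimum mean of 1 UMI, 11 of the 15 remained, and the 3 collagens and Cxcl10 were left out.

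**Figure D5:**
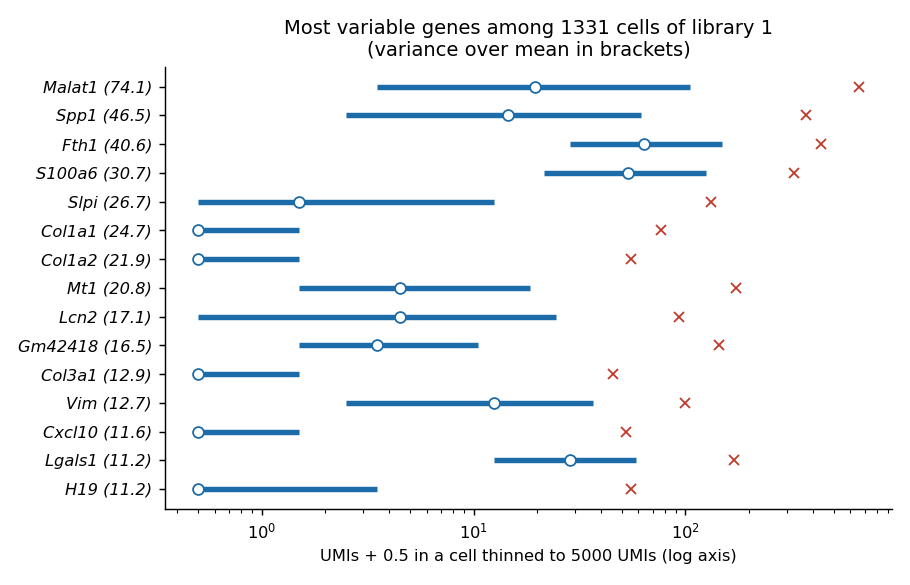
UMIs plus 0.5 per cell (x axis, log) of the 15 most variable genes (y axis, ratio of variance to mean in brackets) in 1331 cells of library 1 thinned to 5000 UMIs; bars run from the 10th to the 90th percentile, circles are medians and crosses are the highest cell. Malat1 and Spp1 vary over the whole set, while the collagens have a median of 0 and single cells far above the rest.

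Several genes varied together across these cells, described by Spearman rho over 1331 cells of 1 library. S100a6 and Lgals1 went together (0.61), and both ran against Lcn2 (-0.48 and -0.43) and Fn1 (-0.48 and -0.43), while Lcn2 and Fn1 went together (0.43). Vim ran against Epcam (-0.42), Cldn4 (-0.34) and Lcn2 (-0.39). Junction genes other than Epcam and Cldn4, summed, had a rho of -0.45 with Vim and 0.46 with Epcam. Fos and Jun (0.62), Aldoa and Pgk1 (0.63), H2-Aa and Cd74 (0.62) and Krt8 and Krt18 (0.59) were the closest pairs within their lists, and Krt8 and Krt18 are also used by the rule. Class II UMIs were unrelated to the junction sum (0.0014) and to Lcn2 (-0.026).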

How the data were processed

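The authors deposited a single matrix of raw UMI counts for 55450 genes and 33064 barcodes, made with Cell Ranger from 10x Genomics libraries. The version is 2.1.1 in the submitters' processing notes, 3.0.2 in the methods and 6.1.2 in the matrix header, the build is mm10, and the methods name Seurat 3.0.0.9000. All identifiers matched GENCODE vM21. Rows of the same symbol were summed.

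The cells, gene lists and comparisons were chosen with earlier results of these data known. Named genes are those of the lists, the 15 with most UMIs, the 10 highest and 10 lowest ratios of a comparison and the 15 most variable. Some genes that meet this rule are not reported here. Counts were summed per class and scaled to CPM. A gene at 20 CPM or more in either class was called past 2-fold on CPM plus 10. Levels and folds carry exact Poisson and conditional binomial intervals and shares exact Clopper-Pearson ones, at 95% and for counting error only. Doublets were kept; Scrublet (scanpy 1.11.5) served as an alternative. Of cells with 5000 UMIs or more, C1q-rich ones held Ptprc and 0.3% or more C1q UMIs, S100a8-rich and S100a9-rich ones Ptprc, less C1q and 1% or more of these UMIs, and collagen-rich ones no Ptprc, less C1q, a lower keratin share and 1% or more Col1a1, Col1a2 and Col3a1 UMIs. The contrast with cells holding neither gene was simulated on 5432 genes, with the changes put into the class with neither gene. Of 50 genes raised 4-fold there 100% passed 2-fold, and of 50 lowered 4-fold 92%. For genes raised and lowered 2-fold the shares were 12% and 28%. Pooled counts were drawn without variation between cells, so these shares cover counting error only. Python 3.11.15, numpy 2.4.6 and scipy 1.17.1 were used.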

Additional observations from a re-analysis of the deposited data

How the results depend on the processing

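The alternatives were other limits of the rule, removal of cells with the highest 5% of doublet scores, leaving out each library, and other pseudocounts, filters and scalings. Limits on C1q and collagen UMIs were added after seeing the data. No paired analysis was possible because no barcode suffix is linked to a sample. The number of cells was 853 with a keratin share of 0.5% or more and 784 with Top2a and Mki67 at 0, and ranged from 56 to 1387 when 1 library was left out. The share from library 1 was 98.9% and 93.4% with keratin limits of 0.5% and 0.1%, 100% with collagen UMIs under 0.05%, and 0 to 100% when 1 library was left out. The share of kept cells was 3.80% at 10000 UMIs, 2.66% and 4.58% at keratin limits of 0.5% and 0.1%, 3.58% at 2 UMIs each of Epcam and Cldn4, 2.44% at Top2a and Mki67 of 0, 4.83% with a Ptprc UMI allowed, and 0.231, 5.66, 5.47 and 5.97% without libraries 1, 2, 3 and 4. Against the cells with neither gene, the numbers higher and lower were 252 and 79 at a keratin limit of 0.5% (22 cells with neither gene), 148 and 36 with Top2a and Mki67 at 0, 145 and 46 at a pseudocount of 1 CPM, 24 and 3 at a minimum of 100 CPM, and 128 and 29 after thinning. Junction genes higher were 2 at 100 CPM. Mesenchymal genes lower were 2 at a keratin limit of 0.5%, and 1 with Top2a and Mki67 at 0 and at a pseudocount of 1 CPM. Ifit1 reversed, to a log2 ratio of 0.92 at 10000 UMIs and 1.19 at a keratin limit of 0.5%, where Pmp22 reversed to 0.43. Against cycling cells, genes higher were 38 with Top2a and Mki67 at 0 and after thinning, 41 at a pseudocount of 1 CPM and 15 at 100 CPM, where 70 were lower, 9 of them G2/M genes. Between the libraries, 70 were higher and 70 lower at 100 CPM, 279 and 480 after thinning, and 424 lower at a pseudocount of 1 CPM. At 100 CPM 7 interferon-response genes were higher, and 10 hypoxia genes were lower by the mean of each cell's CPM. The cause of these shifts was not tested. Of the other counts and shares, 287 stayed within their limits. Of single log2 ratios 973 kept their side of 2-fold and 24 no longer passed it, and of single CPM levels 124 moved past their counting interval and 131 did not. Without library 1 the comparison classes had under 20 cells, and with the collagen limit no cell of library 2 was left, so neither gave a comparison. The 56 cells of library 2 limit what can be said of genes at low level there.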
